A study of Arabidopsis thaliana with 8 samples.

Results

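The transcripts described here are those of young Arabidopsis thaliana embryos from a cross of the stock line M0171, used as female, with the laboratory wild type Col-0, used as male. The embryos were isolated 3 d after pollination, and the labels give the ecotype Col-0 for both parents and do not describe M0171 further. The samples were chosen by label as the Col-0 cross channel of the 3 d arrays, which is 4 of the 8 samples of the study; the other 4 were taken at 6 d and are not used. Each 2-colour array carried RNA of this cross in 1 channel and RNA of another cross in the other, and only the first is described, so nothing here compares crosses. Total RNA was amplified as antisense RNA and coupled to a dye, which was Cy3 for replicates 1 and 2 and Cy5 for replicates 3 and 4, and the labels call the 4 replicates biological. The arrays held 27530 gene spots of 27387 probes for 24648 genes, of which 24467 (99.3%) had a name or entry in the reference gene table.

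An embryo of this age is a small body of dividing cells beside a suspensor, enclosed by endosperm and by the maternal seed coat. In this period transcription factors of the WOX, PLT and HD-ZIP families mark out the apical, basal and outer cells, and auxin acts through response factors that are held back by Aux/IAA proteins. Storage proteins, oil bodies and desiccation proteins are known to build up later, under LEC1, LEC2, FUS3 and ABI3. In RNA pooled from isolated embryos, a low signal can come from few cells of a type or from little RNA in each, and these cannot be told apart.

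A gene was called above blank on an array where its spot exceeded the 95th percentile of the signal of the EMPTY and 3XSSC spots, which hold no Arabidopsis probe. Those thresholds were 27.96, 77.7, 67.7 and 47.2 arbitrary units on replicates 1 to 4. By this measure 14505 of the 24648 genes (58.8%) were above blank on all 4 arrays and 3408 genes (13.8%) on no array. A further 2189 genes were above blank on 3 arrays, 1830 on 2 and 2716 on 1. Most of the 3408 lacked values as well as signal: 1702 had a value on 1 array, 1029 on 2 arrays, 534 on 3 arrays and 143 on all 4. A gene of this kind has only an upper bound near the threshold, so "not above blank" does not mean that its transcript was absent. The median over all genes of the mean log2 signal was 7.86, and among the 20228 genes with values on at least 3 arrays, which were ranked, the middle of the range ran from 6.85 (25th percentile) to 10.29 (75th percentile).

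**Figure D1:**
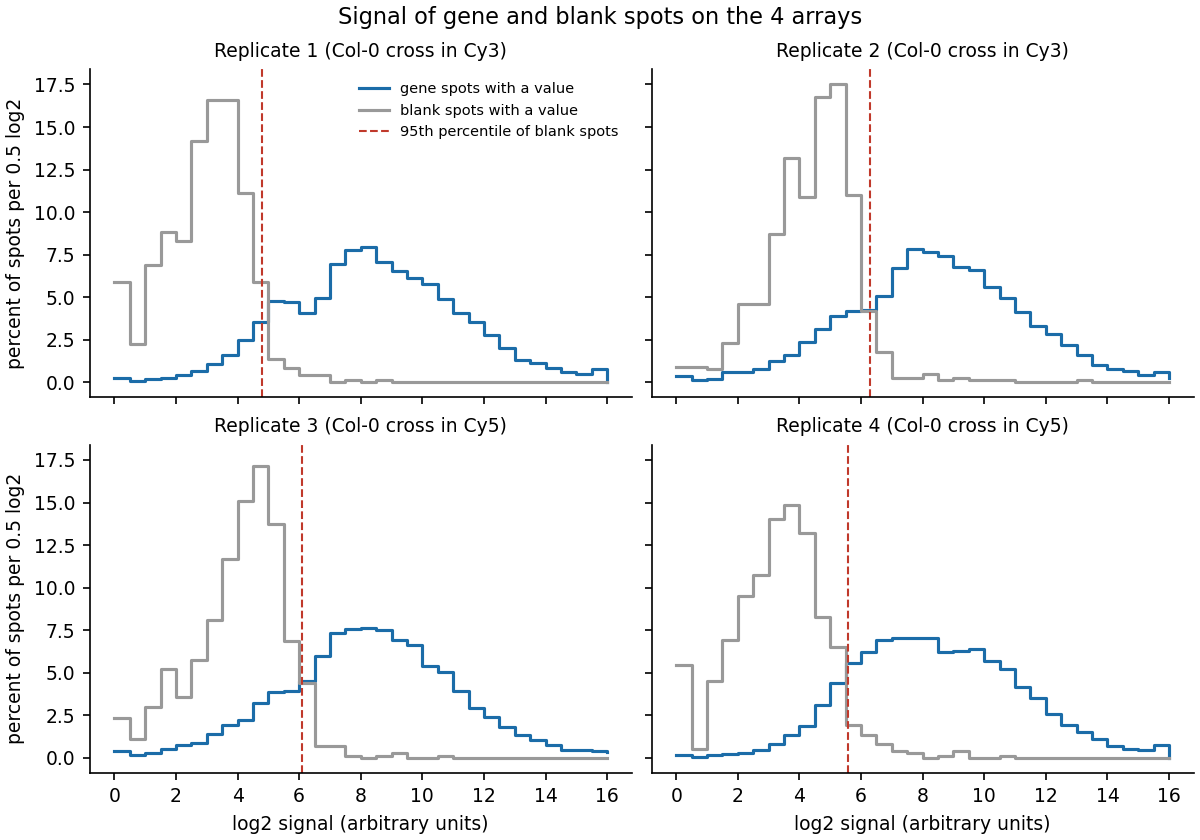
Distribution of log2 signal (arbitrary units) on each array, as percent of spots per 0.5 log2, for gene spots (blue) and blank spots (grey) that have a value; the dashed line is the 95th percentile of blank spots. Gene spots peak near 8 and the blank spots lie mostly to the left of the threshold on each of the 4 arrays.

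The limma test of each gene's log2 signal against the log2 threshold of its array, over replicates, found 14878 of 20228 genes (73.6%) higher than the blank threshold and 528 (2.61%) lower at a Benjamini-Hochberg adjusted p under 0.05. The count of lower genes was not stable. It was 5 when the fit let the variance follow the mean signal, and 2700 at the 99th percentile of blank spots. Values after ± with "over the threshold" are this fit's standard errors, which contain the spread of the thresholds themselves. The 4 arrays were not equally alike. Over the 14505 genes, log2 signals of replicates 1, 2 and 3 correlated at 0.89 to 0.93, and those of replicate 4 with the other 3 at 0.79 to 0.80, so replicate 4 stood apart from its Cy5 partner as well as from the Cy3 arrays. Without replicate 4, 14826 genes (60.2%) were above blank on the remaining 3 arrays, and 62 of 64 families of at least 10 genes kept their side of the share of all genes. The median SD of a gene's log2 signal over the arrays was 0.62. A limma test of Cy5 against Cy3 arrays called 0 of 16886 genes, with 737 at an unadjusted p under 0.05 and a smallest adjusted p of 0.924; with 2 arrays a dye it could recover only very large differences in simulated data.

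A rank of signal depends on the probe and the spot as well as on the RNA. Among 1238 genes with several probes measured on every array, the highest and the lowest probe of the same gene differed by a median of 1.97 on the log2 scale, with a 90th percentile of 4.50. The SD among probes of a gene was 1.73, against 2.22 over all these probes. Copies of the same probe on 1 array also varied, with a median SD of 1.64 to 2.42 over 11 reporters printed many times. Differences between probes and between spots were therefore not separated. For 195 of the 1645 genes with several probes, 1 probe was above blank on all arrays and another on none. The widest case was ECT3, whose probes averaged log2 14.31 and 3.65, followed by GRP9 with 13.93 and 3.37 at the ends and a further probe at 13.44. A gene is therefore given by its brightest probe throughout, levels of single genes are read against the blank threshold and not against each other, and a gene with 1 dim probe is not shown to be silent.

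**Figure D2:**
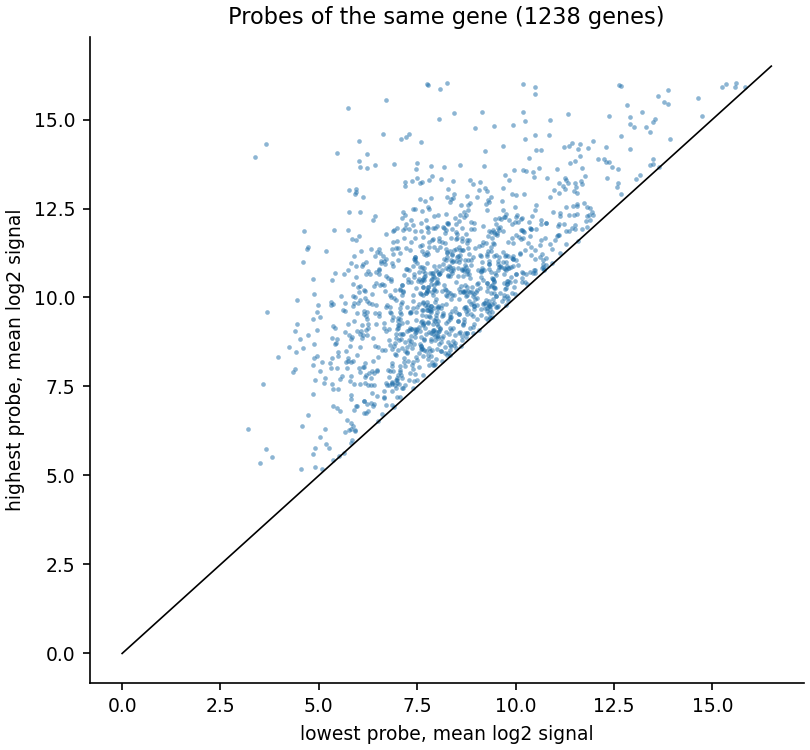
Mean log2 signal of the dimmest probe (x axis) and of the brightest probe (y axis) of each of 1238 genes with 2 or more probes; each point is a gene and the line marks equal signal. Many points lie far above the line, with a median difference of 1.97.

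Ribosomal protein genes made up the larger part of the genes at the upper end of the scale. Within 0.3 log2 of the highest signal of an array, where the scale has no room left, lay 48 genes on all 4 arrays, and 204 on at least 1 array. Of the 48, 25 coded for cytosolic ribosomal proteins, 4 for core histones, 3 for lipid transfer proteins, 2 for tubulins and 2 for glycolytic enzymes, while 9 belonged to none of the families. AT1G74060, a ribosomal protein of the large subunit, had signals of 63868, 69497, 71831 and 68562 on replicates 1 to 4. The chaperone HSP81-2 of the HSP90 class had 63068, 69396, 71730 and 63745, and nucleolin NUC-L1, which works in ribosome assembly in the nucleolus, had 65461, 63825, 69324 and 68129. No order among them can be read, only that each lay at the upper end of the scale on every array. The same holds for the histone H3 gene AT5G10980, the elongation factor gene AT5G60390, the glycine-rich RNA-binding protein CCR1, the alpha-tubulin TUA4, the mitochondrial ADP/ATP carrier AAC1, the cytosolic glyceraldehyde-3-phosphate dehydrogenase GAPC2 and the lipid transfer protein LTP6, whose mean log2 signals ran from 15.90 to 16.02.

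Across the translation machinery nearly every gene gave signal. Of 237 cytosolic ribosomal protein genes, 220 (92.8%) were above blank on all arrays, against 58.8% of all genes, and 1 was on none. Their median log2 signal was 13.42, against 7.86 for all genes, and the median on single arrays lay between 13.52 and 13.87. Together they gave between 12.2% (replicate 1) and 14.8% (replicate 3) of the summed gene signal of an array, and 131 of them stood in the top 5% of ranked genes. RPS5A, a small-subunit protein gene whose promoter is widely used to drive expression in dividing cells, gave 57235, 72735, 72314 and 58426 with its brightest probe and a mean log2 of only 7.77 with its dimmest. The 1 gene of this family that was not above blank on any array, AT3G48960, had no value on replicate 1 and 33.6, 5.57 and 21.9 on the others. The ribosomal proteins of chloroplasts and mitochondria were above blank on all arrays for 35 of 36 genes, with a median of 11.16.

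The factors that load and move the ribosome followed the same pattern. All 14 translation elongation factors were above blank on all arrays, with a median of 11.07, and so were 62 of 75 initiation factors (82.7%), with a median of 10.65. EIF4A1, the RNA helicase of the initiation complex, gave 59168, 62079, 59463 and 60775, near the upper end of the scale on 3 of the 4 arrays. Of 54 aminoacyl-tRNA synthetases, which charge tRNAs with amino acids, 42 (77.8%) were above blank on all arrays and 5 on none, among them AT5G26710, which had no value on replicate 1 and 3.32, 5.29 and 26.8 on the others.

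Genes of chromatin and cell division were likewise measured in most cases. Of 45 core histone genes, 39 (86.7%) were above blank on all arrays and 0 on none, with a median of 12.10. The linker histones H1 had a median of 7.17 over 7 genes, below that of all genes, with 5 above blank on all arrays. Of the 11 genes for MCM helicase subunits and the replication clamp PCNA, 9 were above blank on all arrays, with a median of 10.35. PROLIFERA (PRL), an MCM subunit named for its expression in dividing cells, gave 13032, 16850, 12661 and 8283, and PCNA1 gave 6080, 10416, 9911 and 13879. Both lay far over their thresholds on each array, PCNA1 by 7.56 ± 0.50 on the log2 scale (limma, adjusted p = 1.6e-09). Another licensing helicase subunit, MCM2, gave 6702, 8473 and 7816 on replicates 1 to 3 and 1632 on replicate 4.

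Among cyclins, which carry cells through the division cycle, 14 of 18 A and B types and 8 of 10 D types were above blank on all arrays, with medians of 8.92 and 10.12. The mitotic cyclin CYCB1;3 gave 6808, 5042, 2194 and 5316. CYCD3;3, a D-type cyclin that acts at entry into division, gave 23270, 24981, 20480 and 6347, again lowest on replicate 4. The A-type cyclin CYCA3;3 was above blank on no array and had values only on replicates 2 and 4, of 8.60 and 40.6. Kinesins, motors of the spindle and of transport, were above blank on all arrays for 42 of 61 genes (68.9%), at a median of 8.06. For all genes the values were 58.8% and 7.86.

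Protein turnover, folding and carbon metabolism were also high. The proteasome, which degrades tagged proteins, had 47 of 51 subunit genes (92.2%) above blank on all arrays, 0 on none, and a median of 12.20. Its brightest subunit, PAG1, gave 58418, 59857, 61392 and 29963. HSP70 chaperones were above blank on all arrays for 14 of 16 genes, and all 3 HSP90 genes were, at medians of 11.84 and 15.77. The small heat shock proteins, which are known for induction by heat, behaved otherwise: 5 of 15 (33.3%) were above blank on all arrays, the median was 6.40, and HSP17.6A had a single value of 19.6, on replicate 4. Their brightest member, AT1G54050, gave 779, 1291, 1202 and 444. Glycolytic enzymes were above blank on all arrays for 37 of 44 genes (84.1%), with a median of 11.80.

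Most genes of the photosynthetic apparatus gave signal at this early age, and some of them strong signal. Of 53 photosystem and light-harvesting proteins, 45 (84.9%) were above blank on all arrays, with a median of 10.65, and all 4 small Rubisco subunits were, with a median of 14.87. For all genes the share was 58.8% and the median 7.86. RBCS1A, the main small subunit of the carbon-fixing enzyme, gave 59857, 64163, 58160 and 63008, and CAB1, a light-harvesting protein also called LHCB1.3, gave 59315, 69162, 69348 and 41724. Both reached the upper end of the scale. Of the 14 leaf photosynthesis markers, 12 were above blank on all arrays, and LHCB1.1 and LHCB2.1 on 2 arrays each. LHCB1.1 gave 16.6, 90.2 and 97.5 with no value on replicate 4, and LHCB2.1 gave 34.7, 56.8, 22.5 and 52.0. Whether the probe of CAB1 also binds transcripts of related genes was not tested. Of the 53 family members, 2 were above blank on no array.

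Genes known from mutants that arrest as embryos, the EMBRYO DEFECTIVE class, were above blank on all arrays for 214 of 261 (82.0%), and on none for 8 (3.07%), against 58.8% and 13.8% of all genes. Their median log2 signal was 9.37, against 7.86, and it lay between 9.29 and 9.66 on the single arrays. The limma test found 219 of the 250 ranked members higher than the threshold and 2 lower, beside 73.6% and 2.61% of all ranked genes.

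**Figure D3:**
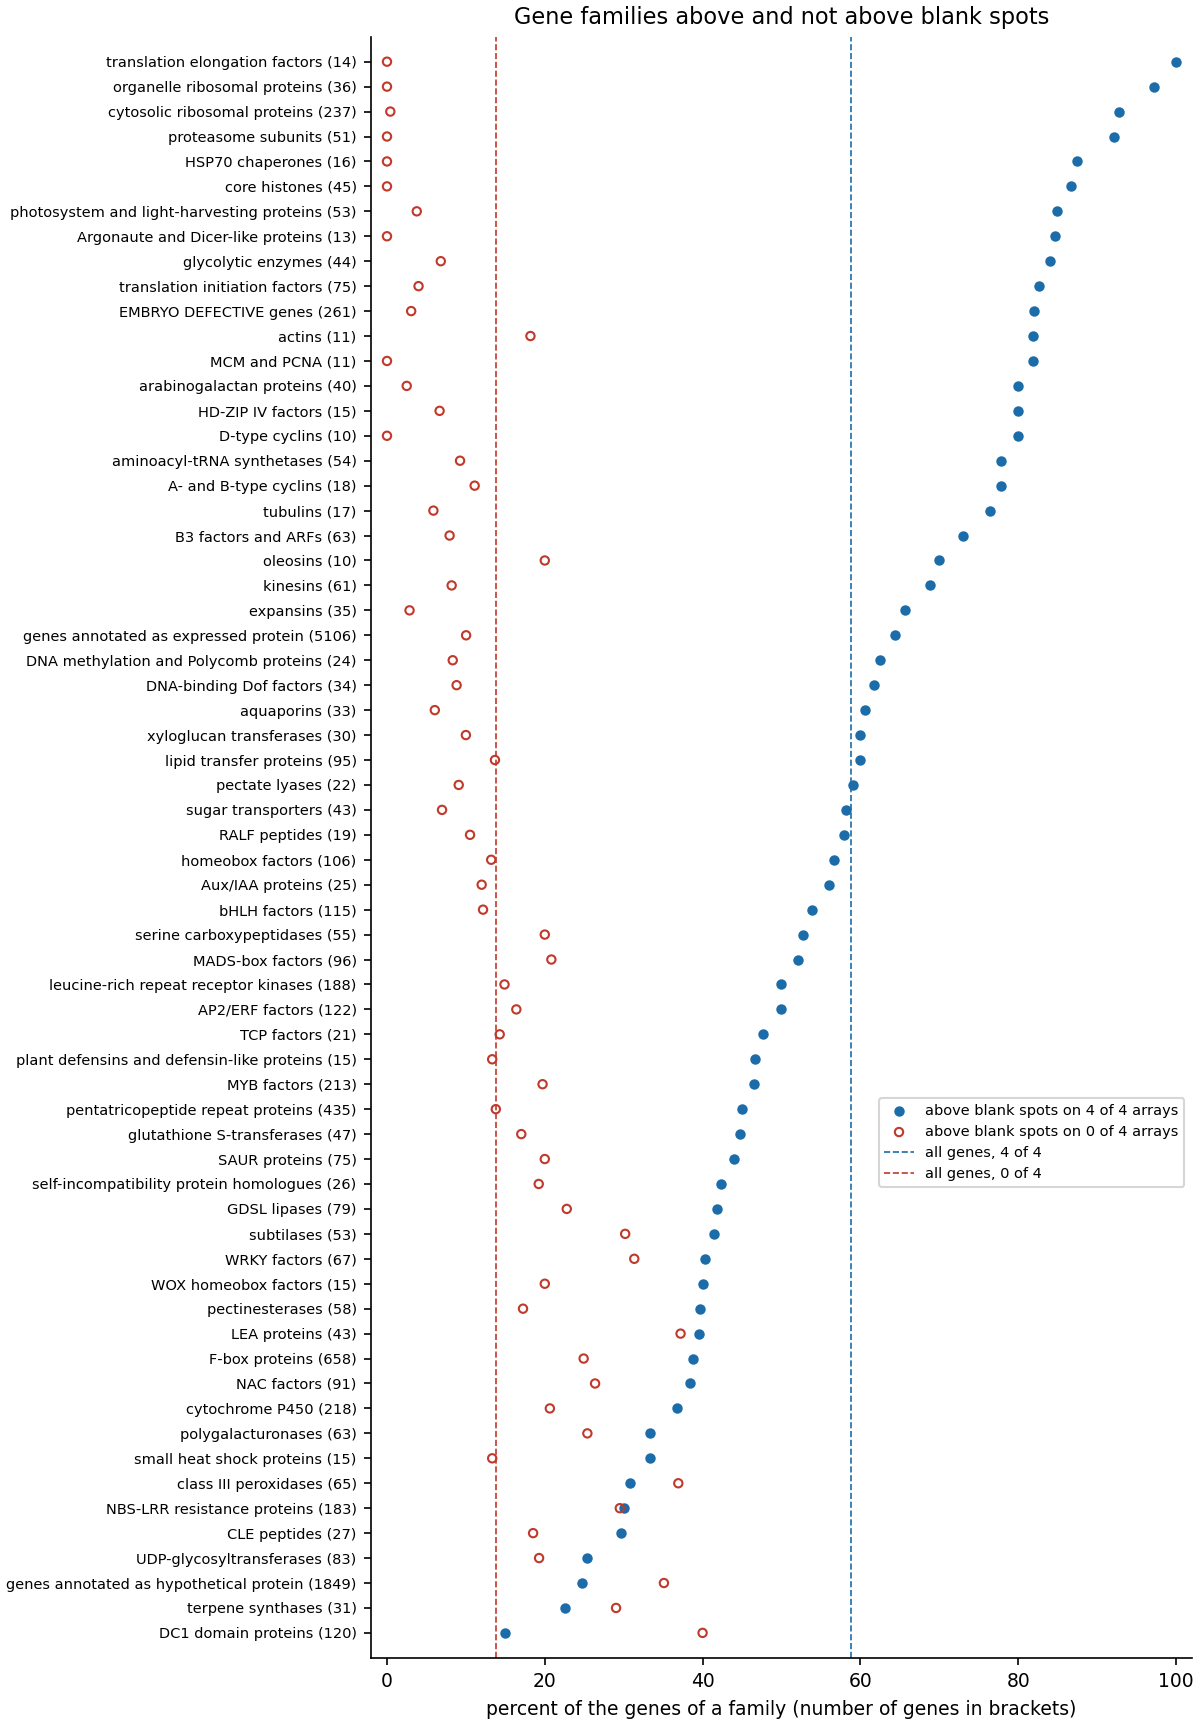
Percent of the genes of each family of at least 10 genes that were above blank spots on 4 of 4 arrays (filled, blue) and on 0 of 4 arrays (open, red), with the number of genes in brackets; dashed lines mark all genes, at 58.8% and 13.8%. Elongation factors, ribosomal proteins and proteasome subunits stand at the right, and DC1 domain proteins, terpene synthases and genes annotated as hypothetical at the left.

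Regulators known from embryo patterning were measured one by one, as a check of the labelled tissue and as the genes of most interest. Of 28 listed regulators with a probe, 26 (92.9%) were above blank on all 4 arrays, against 58.8% of all genes. The other 2, ACR4 and SHR, were above blank on 3, and BBM had no probe that could be used. The median log2 signal of the 28 was 10.05, against 7.86 for all genes. In the limma fit 25 of the 28 were higher than the blank threshold, beside 73.6% of all ranked genes, and WOX2, ACR4 and SHR did not pass. Markers of seed coat (83.3%) and leaf photosynthesis (85.7%) were above blank on all arrays nearly as often. The count therefore does not by itself single out embryo tissue. Without replicate 4, 27 of the 28 were above blank on the remaining arrays. The summed signal of the list was 115253, 93406, 113073 and 127106 on replicates 1 to 4. PDF1 alone gave 56630, 35477, 65996 and 61637 of these sums.

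**Figure D4:**
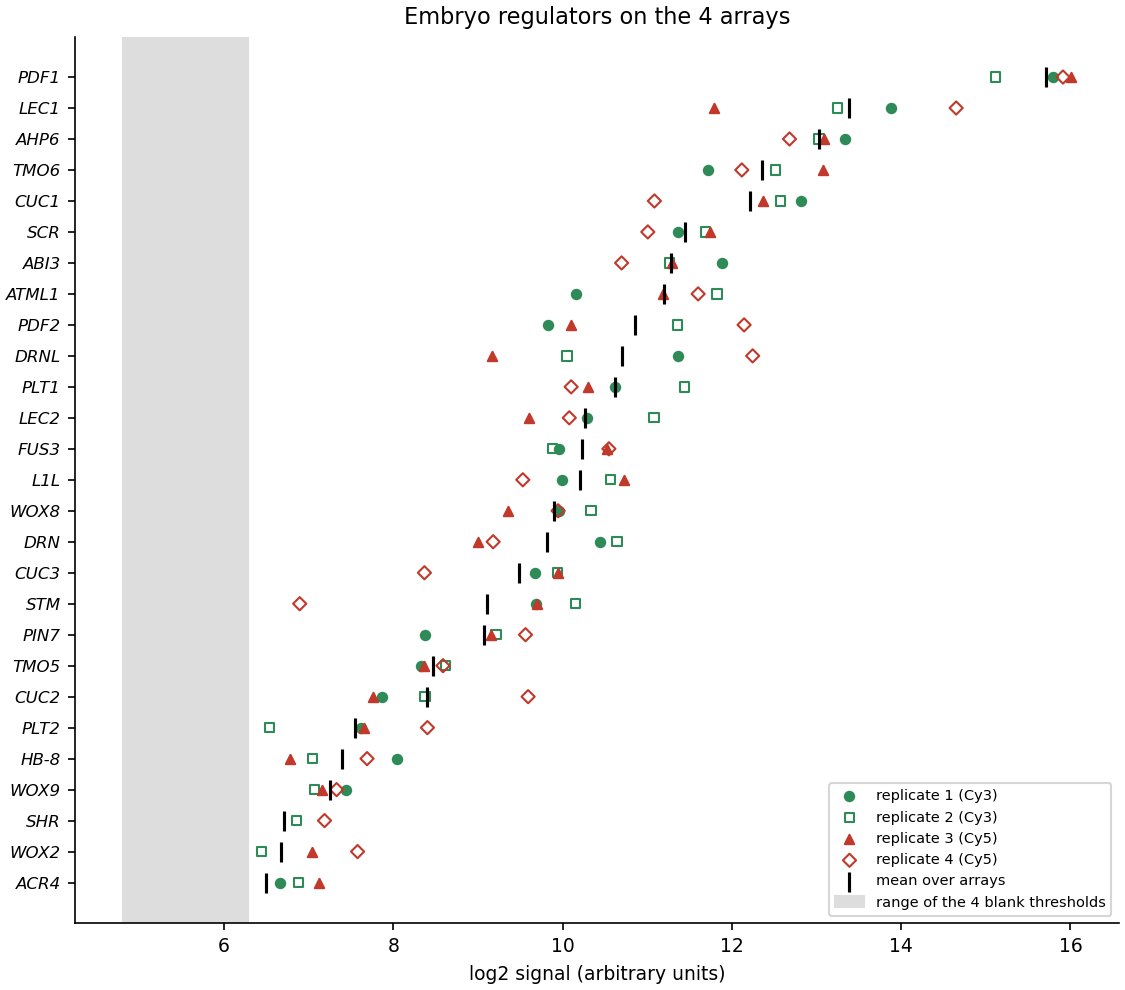
Log2 signal (arbitrary units) of 27 of the 28 embryo regulators on each of the 4 arrays, with the mean as a bar and the range of the 4 blank thresholds in grey; Cy3 arrays are green and Cy5 arrays red. PDF1 lies between 15.11 and 16.01, while WOX2, SHR and ACR4 lie at the edge of the grey band.

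The maturation regulators were all above blank on every array. LEC1, a subunit of a CCAAT-binding factor that is needed for embryo identity, gave 15064, 9703, 3529 and 25704, which lies 7.71 ± 0.60 over the threshold on the log2 scale (limma, adjusted p = 9.41e-09). Its arrays spread widely, with replicate 3 lowest and replicate 4 highest, an SD of 1.21 on the log2 scale. Its closest relative NF-YB6, also called LEC1-LIKE, gave 1023, 1520, 1699 and 740. The B3 factors LEC2, FUS3 and ABI3 had mean log2 signals of 10.26 ± 0.62, 10.23 ± 0.36 and 11.28 ± 0.48 (SD, n = 4). ABI3, which passes on the abscisic acid signal in seeds, gave 3768, 2465, 2508 and 1661.

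The outer cell layer was represented by the brightest gene of the list. PDF1, a small secreted protein of the protoderm, gave 56630, 35477, 65996 and 61637. The homeodomain factors ATML1 and PDF2, which bind the promoters of such genes, gave 1147 to 3628 and 912 to 4528. Both lay far over the threshold on every array. The receptor kinase ACR4, listed as CR4 in the gene table, gave 101, 118, 139 and 39.6, below the threshold on replicate 4, and lay 0.81 ± 0.52 over the threshold (limma, adjusted p = 0.166). The HD-ZIP IV family to which ATML1 belongs had 12 of 15 genes above blank on all arrays and a median of 9.88, and its brightest member was HDG3, with 2872, 3759, 4025 and 3790.

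Some genes of the shoot pole were lowest on replicate 4 and others were highest on it. CUC1, which marks the boundary between cotyledons, gave 7199, 6098, 5276 and 2173, and CUC3, of the same family, 816, 983, 988 and 331. STM, the homeobox factor that maintains the shoot meristem, gave 826, 1138, 830 and 119. These 3 had their lowest value there, whereas CUC2 was highest there, with 234, 332, 217 and 773. Of the AP2 factors, ESR1 (DORNROESCHEN) gave 1387, 1599, 512 and 580, and DRNL gave 2626, 1063, 573 and 4857, highest on replicate 4. WUS, which keeps stem cells of the shoot meristem, gave 5283, 4962, 3403 and 4597, so its 4 arrays lay close together at a mean log2 of 12.14 ± 0.28 (SD, n = 4).

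The WOX family, to which WUS belongs, was uneven. Of 15 genes, 6 were above blank on all arrays and 3 on none, and the median was 5.98, below that of all genes. WOX13 gave 3874, 4563, 4204 and 2147. WOX8, a mark of the basal lineage and suspensor, gave 993, 1292, 653 and 987, and WOX9 (HB-3 in the gene table) gave 174, 134, 143 and 161. WOX2, a mark of the apical lineage, gave 50.4, 87.0, 131 and 191.2. Each of those was above its array's threshold, but only by 1.00 ± 0.51 on the log2 scale, which did not pass the limma test (adjusted p = 0.0867).

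Genes of the root pole and vascular tissue were mostly well measured. All 6 genes of the PLT and AIL family, AP2 factors of growing tips, were above blank on all arrays, at a median of 10.04: ANT gave 2962, 4121, 2694 and 4944, PLT1 gave 1575, 2774, 1259 and 1099, and PLT2 gave 197, 92.9, 201 and 339. SCR, a ground tissue factor, gave 2630, 3293, 3414 and 2059, and its partner SHR had no value on replicate 1 and 116, 68.2 and 146 on the others. AHP6 (HP6), an inhibitor of cytokinin signalling in vascular cells, gave 10343, 8358, 8721 and 6568, and TMO6, a Dof factor downstream of MP, gave 3377, 5872, 8669 and 4446. TMO5 (BHLH32), another target of MP, gave 322, 393, 329 and 385. Of HD-ZIP III factors, which set the upper side of organs and vascular pattern, PHB gave 4736, 5779, 3082 and 2348 and HB-8 gave 264, 132, 110 and 207. The auxin efflux carrier PIN7 gave 332, 594, 568 and 756, with its other probes at mean log2 6.21 and 6.17.

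Auxin response genes ranged from the top of the scale to below blank. MP, the response factor required for the embryonic root, gave 3035, 6403, 9756 and 23500. Both Cy5 arrays were higher than both Cy3 arrays, and how many of all genes separate in this way was not counted. The dye test called 0 of 16886 genes, and with 2 arrays a dye it had little power. IAA12, the Aux/IAA protein that binds and restrains MP, gave 5414, 5749, 6012 and 3662 with its brightest probe, and its dimmest probe had a mean log2 of 7.18 against 12.32. Of 25 Aux/IAA genes 14 (56%) were above blank on all arrays and 3 (12%) on none, near the 58.8% and 13.8% of all genes. IAA9 and IAA8 led them, with 52403, 63167, 39765 and 27467 for the former and 34196, 36531, 18837 and 35028 for the latter, and IAA34 had values only on replicates 3 and 4, of 4.12 and 24.7. The wider group of B3 factors and auxin response factors had 46 of 63 genes (73.0%) above blank on all arrays, at a median of 8.42. For all genes the values were 58.8% and 7.86.

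Growth-regulating factors and small RNA proteins were measured with few gaps. All 9 growth-regulating factors, which promote cell number in young organs, were above blank on all arrays, with a median of 10.61; GRF9 gave 2558, 4497, 1997 and 2385. Of 13 Argonaute and Dicer-like proteins, which bind or cut small RNAs, 11 were above blank on all arrays, at a median of 9.93. AGO4, of the DNA methylation pathway, gave 9645, 15462, 14177 and 28409, and AGO10, known for its role in the shoot meristem, gave 6476, 7004, 7145 and 4355. MSI1, a WD-40 protein shared by Polycomb and chromatin assembly complexes, gave 24364, 18406, 12150 and 16483. Of 24 DNA methylation and Polycomb genes 15 (62.5%) were above blank on all arrays, near the 58.8% of all genes, and 2 on none.

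Cell surface and signalling genes were mixed. Receptor kinases with leucine-rich repeats were above blank on all arrays for 94 of 188 genes. ERECTA (ER) and its relatives ERL1 and ERL2, which act in organ growth and epidermal pattern, were among the brightest of them: ER gave 6089, 6466, 6498 and 5691. CLE peptides, short secreted signals, were above blank on all arrays for 8 of 27 genes, at a median of 5.51; CLE19 gave 361, 688, 583 and 884 and CLE40 had 1 value, of 3.16. Arabinogalactan proteins of the cell surface were above blank on all arrays for 32 of 40 genes, at a median of 9.63. Among the 35 expansins, which loosen cell walls, 23 (65.7%) were above blank on all arrays, against 58.8% of all genes. Of the expansins, 3 with close locus numbers gave high signals. EXPA21 gave 41856, 53701, 53319 and 56371, EXPA23 gave 18060, 8697, 19981 and 48278, and EXP26 gave 21651, 7496, 11680 and 41225. EXPA23 and EXP26 were both lowest on replicate 2 and highest on replicate 4. Whether a probe binds transcripts of more than 1 of these genes was not tested.

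Families of the later seed differed at 3 d. Over all genes, 58.8% were above blank on all arrays and 13.8% on none, with a median of 7.86. Of 9 storage protein genes 4 (44.4%) were above blank on all arrays, at a median of 6.37, and those 4 were the albumins SESA1 to SESA4. SESA2 gave 820, 1405, 937 and 1537. CRU3, a cruciferin, had no value on replicate 1 and 37.2, 6.16 and 34.6 on the others, and lay below the threshold by the limma test (log2 -1.66 ± 0.67, adjusted p = 0.0335). How many genes were called lower changed widely with the settings of that test. Oleosins, the coat proteins of oil bodies, were above blank on all arrays for 7 of 10 genes, at a median of 8.64; OLEO2 gave 2507, 3590, 2419 and 1743. Late embryogenesis abundant (LEA) proteins, which accompany drying, were above blank on all arrays for 17 of 43 genes (39.5%) and on none for 16 (37.2%), at a median of 5.95. ERD14, a dehydrin, gave 1259, 4793, 1851 and 6285, whereas ECP63 gave 2.83, 1.73 and 36.4 with no value on replicate 3.

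A single LEA gene showed how far arrays can differ. AT2G44060 gave 47024 and 39467 on the Cy3 arrays but 2417 and 81.5 on replicates 3 and 4, so its mean log2 of 12.09 had an SD of 4.30, against a median SD of 0.62. It was still above blank on every array.

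Several families were above blank less often than all genes. DC1 domain proteins, a plant family with zinc-binding repeats, were above blank on all arrays for 18 of 120 genes (15.0%) and on none for 48, at a median of 5.39. Terpene synthases were above blank on all arrays for 7 of 31 genes (22.6%), UDP-glycosyltransferases for 21 of 83 (25.3%), resistance proteins of the NBS-LRR class for 55 of 183 (30.1%), class III peroxidases for 20 of 65 (30.8%) and polygalacturonases for 21 of 63 (33.3%). These last 5 families had a median between 5.44 and 6.17, below the 7.86 of all genes. WRKY factors, known for defence responses, were above blank on all arrays for 27 of 67 genes and NAC factors for 35 of 91, at medians of 6.23 and 6.08.

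Single members of families with few measured genes nonetheless reached high signal. CYP78A5, a cytochrome P450 that promotes growth of organs and seeds, gave 58163, 57916, 25861 and 46077, in a family where 80 of 218 genes (36.7%) were above blank on all arrays. PRXR1, a peroxidase, gave 11034, 18425, 12353 and 18207, while Prx37 of the same family gave 10.9, 3.46 and 5.92 with no value on replicate 3. WRKY21 gave 13976, 15799, 14545 and 4653, and WRKY62 had 27.5, 1.73 and 3.46 on replicates 2 to 4. The pectinesterase PME44, of a family with 23 of 58 genes above blank on all arrays, gave 5488, 15033, 9950 and 12314. ADR1-L2, a helper of immune receptors, gave 1810, 2232, 2464 and 3323. Among large families, F-box proteins were above blank on all arrays for 255 of 658 genes (38.8%) and pentatricopeptide repeat proteins, which process organelle RNA, for 196 of 435 (45.1%). Of the genes that the array's annotation called hypothetical, 457 of 1849 (24.7%) were above blank on all arrays, and of those it called expressed protein, 3289 of 5106 (64.4%).

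Markers of the tissues around the embryo were measured in the same RNA. Of 18 seed coat genes with a probe, 15 were above blank on all arrays, at a median of 11.05, and their summed signal was 186568, 187407, 179568 and 112144. For the 28 embryo regulators the median was 10.05 and the sums were 115253, 93406, 113073 and 127106. The 2 lists differ in number of genes and in probes. Their medians and sums therefore do not give the relative amounts of embryo and seed coat RNA. BAN, an enzyme of seed coat tannin synthesis, gave 44817, 56002, 50156 and 10987, and TT4, chalcone synthase, gave 30942, 24721, 25724 and 34070. STK, a MADS factor of ovule and seed coat, gave 47232, 38011, 48670 and 7478, with all 3 of its probes above blank on every array. The seed coat regulators were not all seen: TT16 was above blank on no array with any of its 3 probes, and TT8 gave 49.8, 36.2, 96.5 and 372, below the threshold on replicate 2.

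On replicate 4 the seed coat sum was the lowest of the 4 arrays, and 2 genes carried that: BAN and STK together gave 92049, 94013, 98826 and 18465. Without them, a choice made after seeing the data, the sum was 94519, 93394, 80742 and 93679. Of the 16 seed coat genes with values on all arrays, 8 were highest on replicate 4, TT4 and TT8 among them, and 4 were lowest there. Several other genes described above, among them STM, CUC1 and CYCD3;3, were also lowest on replicate 4. Others, among them PCNA1 and CUC2, were highest there. The part of seed coat RNA in the signal of these genes was not tested. For any gene that maternal tissue also transcribes, embryo and seed coat cannot be told apart in these samples.

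Of 15 endosperm genes, 10 (66.7%) were above blank on all arrays, near the 58.8% of all genes, and 0 on none, with a median of 9.04 and summed signals of 11921, 12215, 10367 and 11933. MPC, a gene expressed from its maternal copy in endosperm, gave 5770, 4247, 4362 and 2764, and PHE1, expressed from its paternal copy, gave 891, 1176, 1417 and 993. AGL62, which holds back cellularisation of the endosperm, gave 279, 395, 38.1 and 340, below the threshold on replicate 3 only. FIS2, a Polycomb subunit of the central cell and endosperm, gave 22.7, 30.8, 17.3 and 70.3, above its threshold only on replicate 4, and IKU2 had values of 31.1 and 61.3 on replicates 2 and 4. ZHOUPI, listed as RGE1 in the gene table, gave 50.4, 94.5 and 322 with no value on replicate 3.

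Of 8 suspensor and zygote genes, 6 (75%) were above blank on all arrays, against 58.8% of all genes. Their median of 7.22 lay below the 7.86 of all genes. The 8 include WOX8, WOX9 and PIN7 of the embryo list. HDG11 gave 1408, 847, 859 and 763. The kinase YDA, needed for the first asymmetric division, had values only on replicates 3 and 4, of 39.8 and 96.1, and IAA10 gave 39.2, 76.3, 62.2 and 79.3, which lies 0.27 ± 0.49 over the threshold (limma, adjusted p = 0.627).

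Pollen genes gave little signal: of 15 with a probe, 4 were above blank on all arrays and 4 on none, and their summed signal was 1285, 1855, 1154 and 1975. The sperm genes HAP2 and GEX2 had 1 value each, of 39.3 on replicate 4 and 11.1 on replicate 1, both below the threshold. MGH3, the histone H3 of sperm, gave 445, 533, 310 and 564, which was 3.14 ± 0.51 over the threshold (limma, adjusted p = 3.27e-05). Whether its probe also binds other histone H3 transcripts was not tested. Of 7 root hair genes 3 (42.9%) were above blank on all arrays, against 58.8% of all genes, with EXPA7 the brightest at 567, 950, 643 and 720.

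Floral organ genes were divided. The SEPALLATA factor SEP1 gave 3914, 5144, 3744 and 4393 and AP3, of petal and stamen identity, gave 2017, 3396, 3356 and 1849, whereas its partner PI had values of 2.83 and 3.32 on replicates 1 and 4, and LFY gave 16.0, 19.2 and 16.3 with no value on replicate 3. Of 9 such genes, 6 (66.7%) were above blank on all arrays and 2 (22.2%) on none, against 58.8% and 13.8% of all genes. FLC, the MADS repressor of flowering, gave 2381, 5214, 3469 and 6976.

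**Figure D5:**
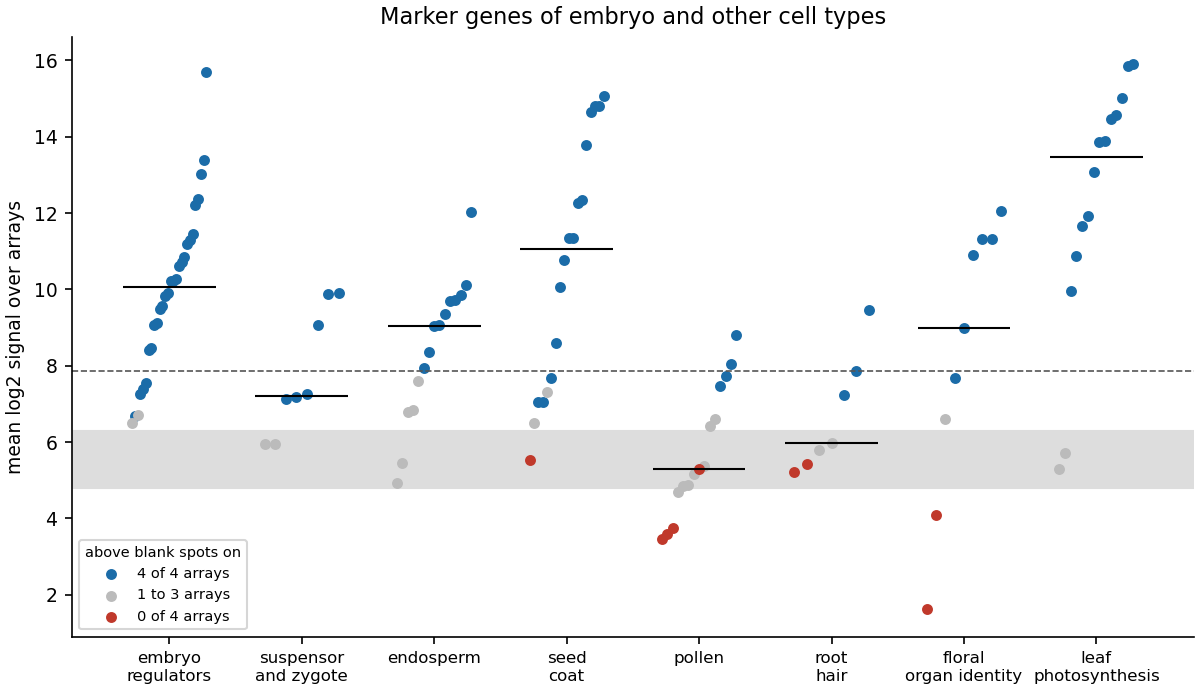
Mean log2 signal over the arrays of each gene of 8 marker lists, coloured by whether it was above blank on all 4 arrays (blue), on 1 to 3 (grey) or on none (red); the bars are list medians, the dashed line is the median of all genes (7.86) and the grey band the range of the 4 thresholds. Embryo regulators and seed coat genes lie mostly above the band, and most pollen genes lie in it or below it.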

How the data were processed

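The intensities used are those deposited for the Col-0 cross on the 4 arrays of 3 d, with 1 value per spot on a linear scale. Blank spots lay near 0 in these deposited intensities and part of the spots had no value; background correction, scanning and normalization by the authors were not given in the sources used here. The deposited value table was not used, since it holds ratios. All value columns were matched to samples, leaving 0 unmatched.

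Signals under 1 were set to 1 and log2 was taken. Spots of 1 probe were averaged, and a gene took its probe of highest mean signal. No background correction or normalization between arrays was added. Microarray intensities carry no read depth, so the number of arrays limits the precision. Symbols were looked up by locus in RefSeq's genes of TAIR10.1, whose coordinates were not used. No sequences were printed.

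Each gene's log2 signal minus the log2 threshold of its array was tested against 0, and Cy5 was tested against Cy3 arrays on median-centred signals, in limma 3.58.1 (lmFit, eBayes; R 4.3.3) with Benjamini-Hochberg adjustment over all genes. Adjusted p-values are from limma throughout. On simulated data for 17444 genes, 50 changed per size, the first test called 0%, 44%, 82% and 92% of genes set 1, 2, 4 and 6 log2 units over the threshold. The simulated signals had no missing values, no link between neighbouring spots and no spread of thresholds. The rates therefore need not hold for the measured arrays. The dye test called 2% and 0% of genes changed by 4 and -4, and 68% and 54% of those changed by 8 and -8. Python 3.11.15, pandas 2.3.3 and matplotlib 3.10.9 were used for the rest.

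Families were collected by description or symbol, and described by counts and medians beside all genes, with no set test. Named were the 30 genes of highest mean signal, up to 4 brightest members of each family or list, up to 4 members above blank on no array, any embryo regulator, and the 5 genes whose probes differ most. A single embryo regulator is counted in its list but is itself not reported here. 10 further genes were named after their values were seen. The members and lists were chosen with earlier results of these data known. Alternatives were other thresholds, numbers of arrays, handling of missing spots, probes, normalization, dye and each replicate left out. Alternatives chosen after seeing the data were blank spots without a value counted as 0 and a trend along the file order subtracted.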

Additional observations from a re-analysis of the deposited data

Results flagged for a closer look

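Of 194 values tested for an array far from the other 3 (family medians, summed marker signals and single genes), 17 were marked, against 9.7 if 1 in 20 were marked by chance. Replicate 4 was the outlying array for 10 of them, replicate 3 for 5 and replicate 2 for 2. No explanation was tested.

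Replicate 4 lay below the other arrays for the summed seed coat signal, at 112144 against 179568 to 187407. BAN and STK, which carried that difference, were low on it: BAN had a log2 signal of 13.42 against 15.45 to 15.77, and STK 12.87 against 15.21 to 15.57. Without these genes the sum was 93679 on replicate 4 and 80742 to 94519 on the others, and 8 of the 16 seed coat genes with values on all arrays were highest on replicate 4. Some genes of division and the shoot meristem were also low there, MCM2 at 10.67 against 12.71 to 13.05, CYCD3;3 at 12.63 against 14.32 to 14.61 and STM at 6.90 against 9.69 to 10.15. Other genes of division and the shoot pole were highest on replicate 4, PCNA1 at 13.76 against 12.57 to 13.35 and CUC2 at 9.59 against 7.76 to 8.37. The median of A- and B-type cyclins was also highest there, at 9.48 against 8.38 to 9.08. The proteasome subunit PAG1 had 14.87 against 15.83 to 15.91, the light-harvesting protein LHCA4 14.72 against 15.08 to 15.15, GRF1 10.89 against 11.10 to 11.13 and WRKY21 12.18 against 13.77 to 13.95.

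Replicate 3 lay below the others for the median log2 signal of small heat shock proteins, at 6.10 against 6.78 to 6.84, and of SAUR proteins, at 6.88 against 7.17 to 7.22. It was lowest for the summed endosperm signal too, at 10367 against 11921 to 12215, with AGL62 at 5.25 against 8.12 to 8.63, and for IAA8, at 14.20 against 15.06 to 15.16. Replicate 2 was highest for the medians of terpene synthases, at 6.51 against 5.71 to 5.83, and of serine carboxypeptidases, at 9.09 against 8.59 to 8.65.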

How the results depend on the processing

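The count of 14505 genes above blank on all arrays became 9248 with a threshold at the median plus 3 MAD of blank spots, and stayed between 14820 and 15473 with each replicate left out. The 3408 genes above blank on no array became 7250 at the 99th percentile of blank spots, 8743 at the median plus 3 MAD, 6124 when 1 array was allowed, 143 when values on all 4 arrays were required and 5484 on the Cy3 arrays alone; the range was 3620 to 5063 with each replicate left out. Calling a gene not above blank therefore depends on the threshold and on spots without a value. The limma count of 14878 genes over the threshold became 9857 at the 99th percentile, and ran from 13705 to 14735 with each replicate left out. Of 64 families of at least 10 genes, 30 had a median over that of all genes, and 29 to 30 did with each replicate left out. The share of genes above blank stayed on its side of the share of all genes for 57 to 64 families over all settings; xyloglucan transferases, lipid transfer proteins, sugar transporters and pectate lyases were among those that changed side. Of 111 marker genes 79 were above blank on all arrays, and 80 to 82 with each replicate left out. The 30 brightest genes all stayed among the 200 brightest with each replicate left out, and 25 of the 30 did with the mean over the probes of a gene. The dye test called 0 genes in every setting run. The alternatives on thresholds cannot change a median signal and gave none. No paired analysis was possible because a single group was described.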

Other observations

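The position of a spot in the file carried part of its signal. Over 16213 spots above blank on all arrays, the deviation of a spot's log2 signal from its mean on the other 3 arrays correlated with that of the next spot in the file at 0.59, 0.55, 0.56 and 0.53 on replicates 1 to 4. Subtracting a running median over 51 spots lowered the median SD over arrays from 0.62 to 0.40. This alternative was chosen after seeing the data, and its cause was not tested.

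The 11 reporters printed many times on an array varied from copy to copy, with a median SD of 1.64, 2.20, 1.65 and 2.42 on the log2 scale on replicates 1 to 4. ACT2, an actin gene used as a loading reference, had 25 copies with medians of 4050, 4038, 4288 and 2801 and a range of 18.8 to 8952 on replicate 3. TUB2, a beta-tubulin gene, had 13 copies with medians of 21982, 24585, 20604 and 1115.

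Every value under 100 on each array was the square root of a whole number within 0.02. This shows how the deposited numbers are spaced near the blank level; how they came about is not given in the sources used here.

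The arrays also carried probes for 75 microRNA stem-loops, which have no locus and enter no count above. Of these, 13 (17.3%) were above blank on all arrays and 36 (48.0%) on none, with a median log2 signal of 5.09. The brightest was ath-MIR166f, of the family that targets HD-ZIP III factors, with a mean log2 of 9.12.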
